A study of Mus musculus with 6 samples.

Results

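The NR4A family of orphan nuclear receptors was followed in ribosome footprints of mouse islets. Its members were the genes named *Nr4a1*, *Nr4a2* and *Nr4a3* in the deposited count table, 3 of 56747 genes, and each name matched 1 row. Islets of wild-type male C57BL/6J mice, aged 6 to 8 weeks, were kept for 2 h in 25 mM glucose (high glucose, 3 libraries) or in 2.5 mM glucose (low glucose, 3 libraries). By the study's methods the islets of each mouse were split between both conditions and pooled over several mice per replicate, both conditions had been held without glucose for 4 h beforehand, and cycloheximide was present for the last 15 min. High glucose thus followed a glucose-free period, and no library shows islets before that period. In Ribo-seq, RNase removes the RNA outside ribosomes and the protected fragments are counted per gene, so a count follows the amount of an mRNA as well as the ribosomes on each copy. These are bulk islets, in which fewer cells of a type and less RNA per cell cannot be told apart.

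NR4A proteins are called orphan receptors because no physiological ligand is established for them, and their activity is set mainly by how much of them is made. Their genes are early response genes, switched on within minutes to hours by calcium and cAMP through CREB and its CRTC co-activators and through MEF2 factors. The proteins bind a DNA element named NBRE as single molecules, and *Nr4a1* and *Nr4a2* proteins also pair with retinoid X receptors. In rodent beta cells *Nr4a1* and *Nr4a3* are known as targets of Nkx6-1 that can drive proliferation, *Nr4a1* has also been tied to mitochondrial respiration, and *Nr4a2* is best known for its role in dopamine neurons.

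The bases just upstream of the gene starts are shown because they hold a feature that the members share, the core of the cAMP response element (CRE), at which CREB binds. The 250 bases before each start were taken from RefSeq (GRCm38.p6) for *Nr4a1* (chr15:101266596-101266845, forward strand), *Nr4a2* (chr2:57124004-57124253, reverse strand) and *Nr4a3* (chr4:48045055-48045304, forward strand). They are printed in the direction of each gene. Capitals mark the CRE core TGACG or its reverse complement CGTCA.
*Nr4a1*: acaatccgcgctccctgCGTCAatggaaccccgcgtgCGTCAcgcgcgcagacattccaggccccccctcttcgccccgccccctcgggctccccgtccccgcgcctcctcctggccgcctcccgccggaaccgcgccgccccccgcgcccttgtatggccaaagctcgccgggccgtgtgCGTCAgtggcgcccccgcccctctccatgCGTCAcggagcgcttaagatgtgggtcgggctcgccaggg
*Nr4a2*: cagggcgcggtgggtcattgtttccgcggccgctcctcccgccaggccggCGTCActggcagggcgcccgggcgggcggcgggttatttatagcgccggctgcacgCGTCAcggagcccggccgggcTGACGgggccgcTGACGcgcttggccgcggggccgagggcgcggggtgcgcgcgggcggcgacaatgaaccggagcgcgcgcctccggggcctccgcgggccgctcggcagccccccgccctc
*Nr4a3*: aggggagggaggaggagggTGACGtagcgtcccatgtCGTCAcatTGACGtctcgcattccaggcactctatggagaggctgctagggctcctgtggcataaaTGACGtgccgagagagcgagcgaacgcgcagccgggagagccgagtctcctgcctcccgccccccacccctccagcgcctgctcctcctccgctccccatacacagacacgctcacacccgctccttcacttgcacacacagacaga

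Each window held 4 CRE cores. Of 32851 RefSeq windows of the same length, 17.8% held at least 1 core on either strand and 45 windows (0.137%) held 4 or more. Cores were more common in the 8003 of these genes that had a single window and enough counts for the test below, at 28.3% and 0.375%. The GC content was 74.4%, 80% and 63.6% in the windows of *Nr4a1*, *Nr4a2* and *Nr4a3*, and 60.4% on average for those 8003. Its part in the number of cores was not tested. All 4 cores of *Nr4a1* lay on the reverse strand, those of *Nr4a2* were split evenly between the strands, and *Nr4a3* had 1 on the reverse strand. The full palindrome TGACGTCA, which contains 2 overlapping cores, was in none of the 3 windows and in 1.55% of all windows. The NBRE, AAAGGTCA, was in none of the 3 and in 1.34% of all. A match describes letters in these windows and is not a measured binding site, and the annotation also places other starts of *Nr4a1* and *Nr4a3* further upstream.

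**Figure D1:**
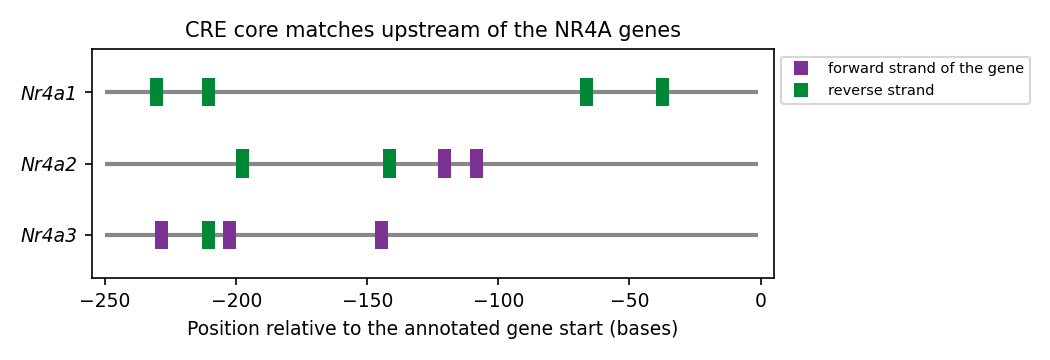
Positions of the CRE core upstream of the NR4A genes. The x axis gives the distance from the annotated gene start in bases, each grey line is a 250-base window, and colours give the strand of the match relative to the gene. Each window holds 4 matches, and no 2 genes share the same arrangement.

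Library totals were 16322162 to 20692579 counts in high glucose and 9242549 to 12175699 in low glucose. Levels are given in CPM, counts divided by the TMM-scaled library size (factors 0.980 to 1.02) and set to a common depth. The quasi-likelihood test of edgeR was run on the 13100 genes that had enough counts, and an adjusted p is its Benjamini-Hochberg value across all of them. The log2 fold change (log2FC), with its standard error (SE), puts high glucose over low glucose. Higher and lower are used at an adjusted p under 0.05, which 22.2% of the tested genes passed, 12.1% upward and 10.2% downward, with a median log2FC of -0.01 over all tested. Summed beta cell markers were at 160916 to 175974 CPM in high glucose and 131523 to 147567 in low glucose, and alpha cell markers at 46862 to 50454 and 58473 to 62245. Most of the beta cell sum was *Ins2*, which averaged 117224 CPM in high glucose and 91577 CPM in low glucose. The 8 beta cell markers went both ways: 5 were higher, 1 did not pass, and *Mafa* (log2FC -0.56, adjusted p = 2.1e-06) and *Iapp* (-0.09, adjusted p = 0.023) were lower. Of 5 alpha cell markers 4 were lower and 1 did not pass. Of the markers of other cells, all 9 tested acinar ones were lower, 2 of 6 endothelial, 1 of 5 macrophage and 2 of 6 stellate and fibroblast ones were lower, and of 4 ductal ones 1 was higher and none lower. Summed acinar markers were at 297 to 318 CPM in high glucose and 670 to 748 in low glucose, endothelial ones at 164 to 177 and 214 to 227, macrophage ones at 141 to 145 and 209 to 233, and ductal ones at 1151 to 1296 and 1057 to 1073. Most of the ductal sum was *Spp1*, at 1203 ± 69.3 CPM in high glucose and 1051 ± 8.04 CPM in low glucose. The lower macrophage marker was *Cd74*, at 104 ± 2.98 CPM in high glucose and 177 ± 18.2 CPM in low glucose. The part of these shifts in the results for the NR4A genes was not tested.

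*Nr4a1* (ENSMUSG00000023034, chromosome 15), also known as Nur77, gave by far the most NR4A footprints. It had 3607, 4257 and 5008 counts in the high glucose libraries, against 56, 30 and 53 counts in the low glucose libraries. After scaling these were 224, 255 and 247 CPM in high glucose, against 5.94, 2.57 and 4.31 CPM in low glucose. The conditions did not overlap: the lowest high glucose library stood 37.8 times above the highest low glucose library. All 3 high glucose libraries exceeded all 3 low glucose libraries for 19.5% of the tested genes.

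*Nr4a1* averaged 242 ± 16.2 CPM in high glucose and 4.27 ± 1.68 CPM in low glucose (mean ± SD of 3 libraries each). Its log2FC was 5.85 (SE 0.16, adjusted p = 2.2e-17), a 57.8-fold difference. This was the 5th highest log2FC of the 13100 tested genes and the highest of the 8701 genes whose mean reached 100 counts. By footprints per library *Nr4a1* stood at place 608, 514 and 530 among all genes in high glucose, against place 9089, 10706 and 9743 in low glucose. The relative spread was also smaller in high glucose, with a coefficient of variation of 6.68% there and 39.4% in low glucose. The counts in low glucose were few, but the spread was beyond counting error in both conditions. A chi-square of the counts against library size, over its degrees of freedom, was 17.7 in high glucose and 7.14 in low glucose. What sets the spread was not tested. A lncRNA gene on the same strand overlaps *Nr4a1* in the deposited annotation and had 4 counts in high glucose and 7 in low glucose in all.

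*Nr4a2* (ENSMUSG00000026826, chromosome 2), also known as Nurr1, moved in the same direction and gave far fewer footprints than *Nr4a1* in high glucose. It had 202, 177 and 276 counts in high glucose, against 18, 40 and 6 counts in low glucose. This corresponded to 12.6, 10.6 and 13.6 CPM in high glucose, against 1.91, 3.43 and 0.487 CPM in low glucose. The conditions again did not overlap, with the lowest high glucose library 3.09 times above the highest low glucose library.

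The mean of *Nr4a2* was 12.3 ± 1.53 CPM in high glucose and 1.94 ± 1.47 CPM in low glucose (SD, n = 3 per condition). Its log2FC was 2.66 (SE 0.42, adjusted p = 5.8e-05), a 6.33-fold difference and the 23rd highest of the tested genes. The high glucose libraries lay within 1.28 times of each other. The low glucose libraries spanned 7.04 times, and the size of the difference depended on them. Without low glucose replicate 2, which had the most counts of that condition, the log2FC was 3.42, and it was 2.18 without low glucose replicate 3. It stayed past the threshold with each library left out in turn, with a highest adjusted p of 9.4e-04. With DESeq2's shrunken estimates the log2FC of *Nr4a1* was 4.77 and that of *Nr4a2* was 1.73.

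*Nr4a3* (ENSMUSG00000028341, chromosome 4), also known as NOR-1, was close to the detection limit in low glucose and in high glucose replicate 1. It had 2, 70 and 40 counts in high glucose, against 1, 0 and 1 counts in low glucose, and did not pass the filter on low counts. Thus 2 of the 3 members were tested, and both were higher, as were 12.1% of all tested genes. In CPM *Nr4a3* stood at 0.124, 4.20 and 1.98 in high glucose, against 0.106, 0 and 0.0812 in low glucose. The 95% exact Poisson intervals, which cover counting error only, were 0.0151 to 0.449, 3.27 to 5.30 and 1.41 to 2.69 CPM in high glucose. In low glucose their upper ends were 0.591, 0.316 and 0.453 CPM. Replicates 2 and 3 of high glucose were above every low glucose library beyond counting error, and high glucose replicate 1 was not.

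Pooled over libraries, *Nr4a3* had 112 counts in high glucose and 2 in low glucose, a ratio of 35.3 after scaling for depth (95% counting interval 9.54 to 295). That ratio was 19.3 (5.02 to 165) without high glucose replicate 2 and 23.0 (6.21 to 192) without low glucose replicate 2. When all 27945 genes with a count were fitted, edgeR gave *Nr4a3* a log2FC of 4.95 (SE 1.22, adjusted p = 9.9e-04), where 5.81% of those genes were higher. Without high glucose replicate 2 this call was lost (log2FC 3.96, edgeR adjusted p = 0.19). Leaving out the filter also made p-values smaller for well-counted genes. For *Nr4a2* the edgeR adjusted p was 5.8e-05 with the filter and 1.6e-11 without it, at a log2FC of 2.66 and 2.68. The p of *Nr4a3* in the unfiltered fit is thus to be read with caution.

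The difference of *Nr4a3* between the high glucose replicates themselves was large. In CPM replicate 2 exceeded replicate 1 by 33.8 times (95% counting interval 9.01 to 284) and replicate 3 exceeded replicate 1 by 15.9 times (4.12 to 136). In the same 3 libraries *Nr4a1* spanned only 1.14 times and *Nr4a2* 1.28 times, so replicate 1 was not low for its relatives. A chi-square of the high glucose counts against library size, over its degrees of freedom, was 32.3 for *Nr4a3*. It had a median of 5.12 over 2428 genes with 56 to 224 counts in high glucose, of which 33 others were at least as uneven. What sets this replicate apart was not tested.

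**Figure D2:**
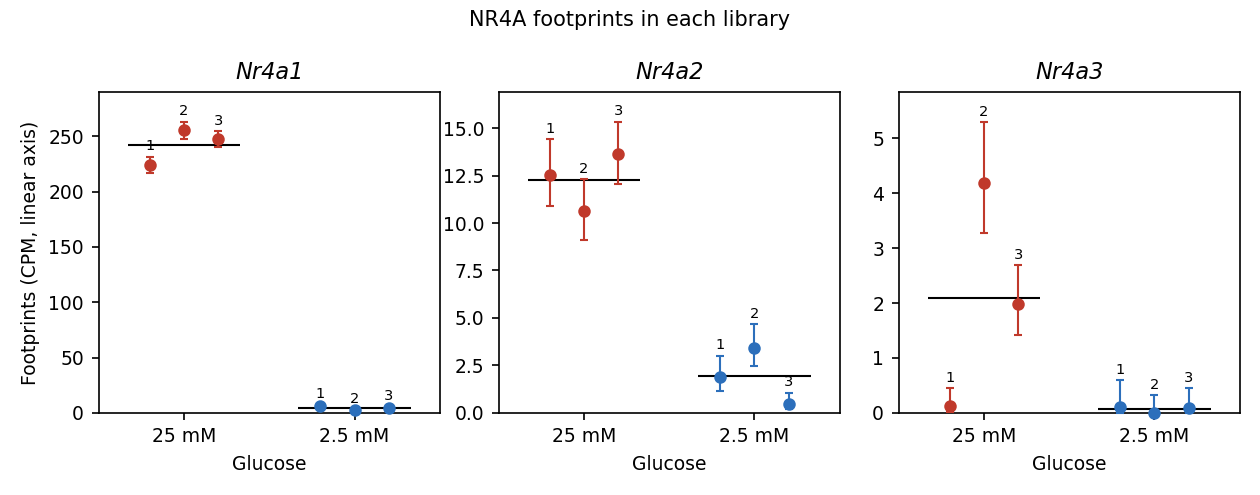
Footprints of *Nr4a1*, *Nr4a2* and *Nr4a3* in CPM (linear axes that differ between panels, starting at 0) in 25 mM and 2.5 mM glucose. Numbered points are the 3 replicates of each condition (25 mM red, 2.5 mM blue), vertical bars give exact 95% Poisson intervals of counting error only, and horizontal lines mark the means. *Nr4a1* and *Nr4a2* are separated in every library, whereas *Nr4a3* has 1 high glucose library, at 0.124 CPM, beside the low glucose libraries.

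As a family the NR4A genes took 237, 270 and 263 CPM in high glucose, against 7.95, 6.00 and 4.87 CPM in low glucose. *Nr4a1* made up 94.4 ± 0.306% of this sum in high glucose and 68.6 ± 23.3% in low glucose (SD, 3 libraries per condition). The share of *Nr4a2* was 4.80 ± 0.760% in high glucose and 30.4 ± 24.2% in low glucose. In low glucose it ran between 10% and 57.1%, so that in replicate 2 *Nr4a2* gave more NR4A footprints than *Nr4a1*. *Nr4a3* contributed 0.786 ± 0.751% in high glucose and 1.00 ± 0.882% in low glucose.

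**Figure D3:**
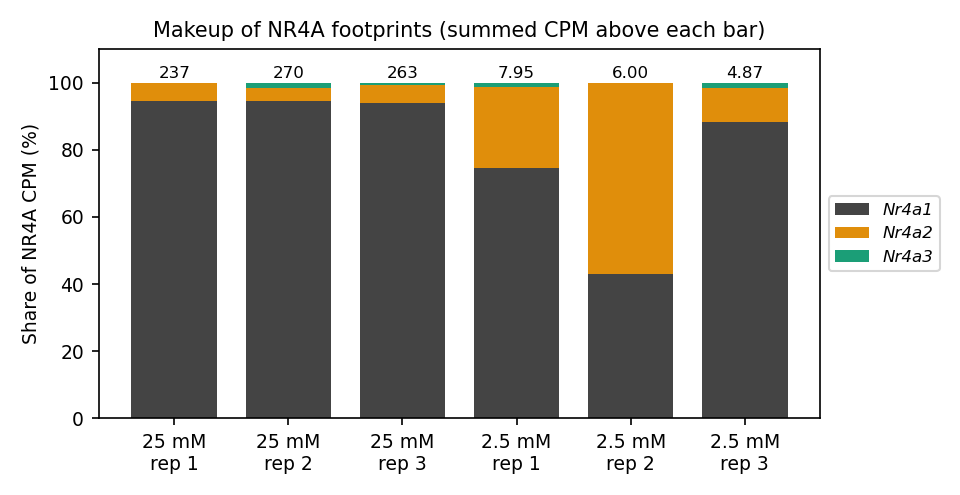
Share of each NR4A gene in the summed NR4A CPM (y axis, percent) for each library, high glucose replicates on the left and low glucose replicates on the right, with the summed CPM above each bar. The makeup is nearly the same in the high glucose libraries, where *Nr4a1* takes 94.1 to 94.6%, and varies in low glucose, where it takes 42.9 to 88.3%.

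Levels were compared between the genes per kilobase of deposited gene length. In high glucose *Nr4a1* had 69.0 ± 4.61 CPM per kb, *Nr4a2* 3.02 ± 0.377 and *Nr4a3* 0.351 ± 0.341, and no library of one overlapped a library of the next. In low glucose the values were 1.22 ± 0.479, 0.478 ± 0.363 and 0.0104 ± 0.00926 CPM per kb. There *Nr4a1* and *Nr4a2* were not separated beyond their spread, since *Nr4a2* was the higher of the pair in replicate 2 (0.845 against 0.733 CPM per kb).

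Whether the members differed in the size of their response was examined with the log2 ratio of each pair in each library. *Nr4a1* over *Nr4a2* averaged 4.29 ± 0.24 in high glucose and 1.33 ± 1.62 in low glucose, a difference of 2.96. *Nr4a1* over *Nr4a3* averaged 7.50 ± 2.00 in high glucose and 4.42 ± 0.19 in low glucose, a difference of 3.08. It was 1.96 without high glucose replicate 1, the library with 2 *Nr4a3* counts. With 1, 0 and 1 *Nr4a3* counts in low glucose, it also hangs on the prior count added before the log2, here 2. It was 2.15 with a prior count of 0.5 and 3.71 with 5. Pooled over libraries, high over low glucose was 58.4 for *Nr4a1* (95% counting interval 49.4 to 69.5) and 35.3 for *Nr4a3* (9.54 to 295). With all libraries and a prior count of 2, both pairs with *Nr4a1* gave p = 0.1 in a two-sided exact permutation test over the 6 libraries. This is the smallest p that 3 against 3 libraries allow, and it was 0.15 after adjustment over the 3 pairs. *Nr4a2* over *Nr4a3* averaged 3.20 ± 2.18 in high glucose and 3.09 ± 1.59 in low glucose (p = 1 in the exact permutation test). This difference of 0.12 turned negative without high glucose replicate 1 (-1.08), without low glucose replicate 3 (-0.67) and with a prior count of 0.5 (-0.73). It does not show equal responses, since the log2FC of *Nr4a2* was 2.66 and the pooled log2 ratio of *Nr4a3* was 5.14. With 3 libraries per condition this test could not reach 0.05 at all, so it cannot decide whether *Nr4a1* responded more than its relatives. The edgeR log2FC was 5.85 (SE 0.16) for *Nr4a1* and 2.66 (SE 0.42) for *Nr4a2*.

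Among the nuclear receptor superfamily *Nr4a1* moved to the top by CPM per kb of deposited gene length. Of 49 nuclear receptor genes it ranked at place 1 per kb in all 3 high glucose libraries, against place 15, 26 and 21 in the low glucose libraries. *Nr4a2* took place 9, 14 and 9 in high glucose, against 27, 24 and 34 in low glucose, and *Nr4a3* took 36, 26 and 28 against 41, 37 and 38. The next receptor in high glucose was *Vdr*, the vitamin D receptor, at 45.2 ± 0.441 CPM per kb in high glucose and 35.1 ± 2.08 in low glucose. In CPM not divided by length, *Vdr* averaged 256 ± 2.49 in high glucose and *Nr4a1* 242 ± 16.2. *Vdr* was then the higher of the pair in replicates 1 and 3, and *Nr4a1* in replicate 2. Place 1 of *Nr4a1* thus depends on the scaling to deposited length. Of the 46 receptors outside the family 31 were tested, 2 were higher (6.45%) and 5 lower (16.1%), with a median log2FC of -0.03. Among all tested genes 12.1% were higher and 10.2% lower. The higher ones were *Vdr* (log2FC 0.36, adjusted p = 4.0e-04) and the estrogen-related receptor *Esrrg* (1.15, adjusted p = 0.0049). *Nr1d1*, the circadian repressor REV-ERB alpha, was lower (-1.94, adjusted p = 7.0e-10), as were *Rora*, which binds the same elements (-0.74, adjusted p = 0.0026), and *Pparg*, the fat cell regulator (-0.93, adjusted p = 0.0054).

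Likeness to the members was measured as the Euclidean distance between gene-centred log2 CPM profiles over the 6 libraries, among 8700 tested genes whose mean reached 100 counts. The profile nearest to *Nr4a1* was that of *Fos*, an AP-1 subunit (distance 1.65). It was followed by *Tent5a*, a cytoplasmic poly(A) polymerase (3.28), the predicted gene *Gm5822* (3.94), *C2cd4a*, a gene at a type 2 diabetes risk locus (4.08), and *Nr4a2* (4.31). *Nr4a2* lay nearest to *Eef1a1-ps1* (1.81), a pseudogene whose reads cannot be surely told from those of its parent, *C2cd4a* (1.82), *Tent5a* (2.00), the class IIa histone deacetylase *Hdac5* (2.07) and the AP-1 subunit *Fosl2* (2.08). *Nr4a3* was left out because it had no count in 1 library. Such a distance largely follows the size of the difference between conditions. The 5 genes nearest to *Nr4a1* came in order of their log2FC (4.73, 3.28, 2.76, 2.70 and 2.66). The distances are thus no separate evidence of likeness beyond the fold changes.

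Other early response genes gave a mixed picture beside the NR4A genes. Of the 7 AP-1 genes 6 were tested, of which 4 were higher (66.7%) and 1 lower (16.7%), with a median log2FC of 1.38. The shares over all tested genes were 12.1% and 10.2%. *Fos* averaged 53.5 ± 4.13 CPM in high glucose and 2.01 ± 0.118 CPM in low glucose (log2FC 4.73, adjusted p = 7.3e-14), below *Nr4a1* in fold change. *Fosb* (3.83, adjusted p = 2.2e-04) and *Fosl2* (2.16, adjusted p = 5.5e-07) lay to either side of *Nr4a2*, and *Junb* was higher by a smaller amount (0.60, adjusted p = 2.5e-04). *Jun* was lower (-0.66, adjusted p = 0.0029), *Jund* had a log2FC of -0.87 that did not pass (adjusted p = 0.11), and *Fosl1* was not tested. Of 16 EGR and other early genes 13 were tested, with 5 higher (38.5%), none lower and a median of 0.30. They were led by the activity-dependent factor *Npas4* (log2FC 3.99, adjusted p = 1.2e-06), followed by *Ier3*, a survival gene (0.96, adjusted p = 1.0e-04), and the clock gene *Per1* (1.01, adjusted p = 1.2e-04).

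**Figure D4:**
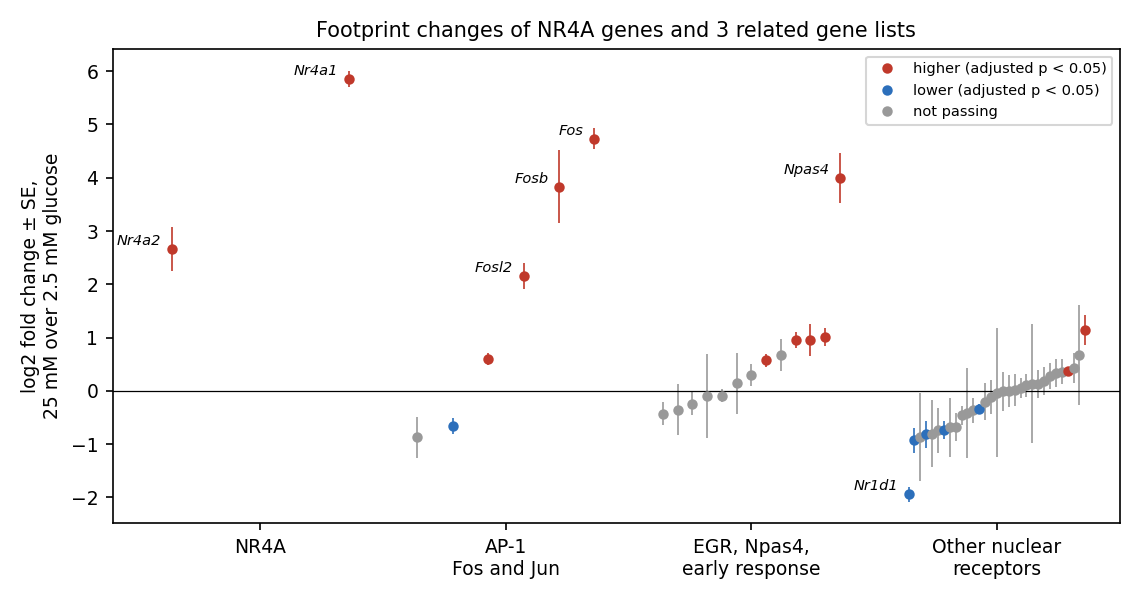
Log2 fold change (25 mM over 2.5 mM glucose, y axis) with its SE for the tested NR4A genes and for 3 related gene lists, each ordered by value along the x axis. Red points are higher, blue lower and grey not passing. *Nr4a1* at 5.85 is above every other gene shown, and the other nuclear receptors lie between -1.94 and 1.15.

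The signalling genes through which calcium and cAMP reach NR4A promoters moved in both directions. All 40 were tested, of which 11 (27.5%) were higher, 5 (12.5%) were lower and 24 did not pass. Of all tested genes 12.1% were higher and 10.2% lower. The log2FC of the 40 ran from -0.77 to 1.89, with a median of 0.15. *Hdac5*, which holds MEF2 factors in check, averaged 61.3 ± 10.5 CPM in high glucose and 16.5 ± 2.97 CPM in low glucose (log2FC 1.89, adjusted p = 1.1e-08). *Sik1*, a kinase that restrains the CRTC co-activators, was at 56.8 ± 4.49 CPM in high glucose and 16.9 ± 0.851 CPM in low glucose (log2FC 1.75, adjusted p = 4.9e-09). *Crem*, a CREB relative with activator and repressor forms that gene counts do not separate, had a log2FC of 1.61 (adjusted p = 1.1e-07). The lower genes included the calmodulin kinase subunit *Camk2b* (-0.36, adjusted p = 0.0011), the factor *Mef2a* (-0.58, adjusted p = 0.0032) and *Prkacb*, a catalytic subunit of protein kinase A (-0.26, adjusted p = 0.010). *Creb1* itself had a log2FC of -0.48 and did not pass (adjusted p = 0.14).

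**Figure D5:**
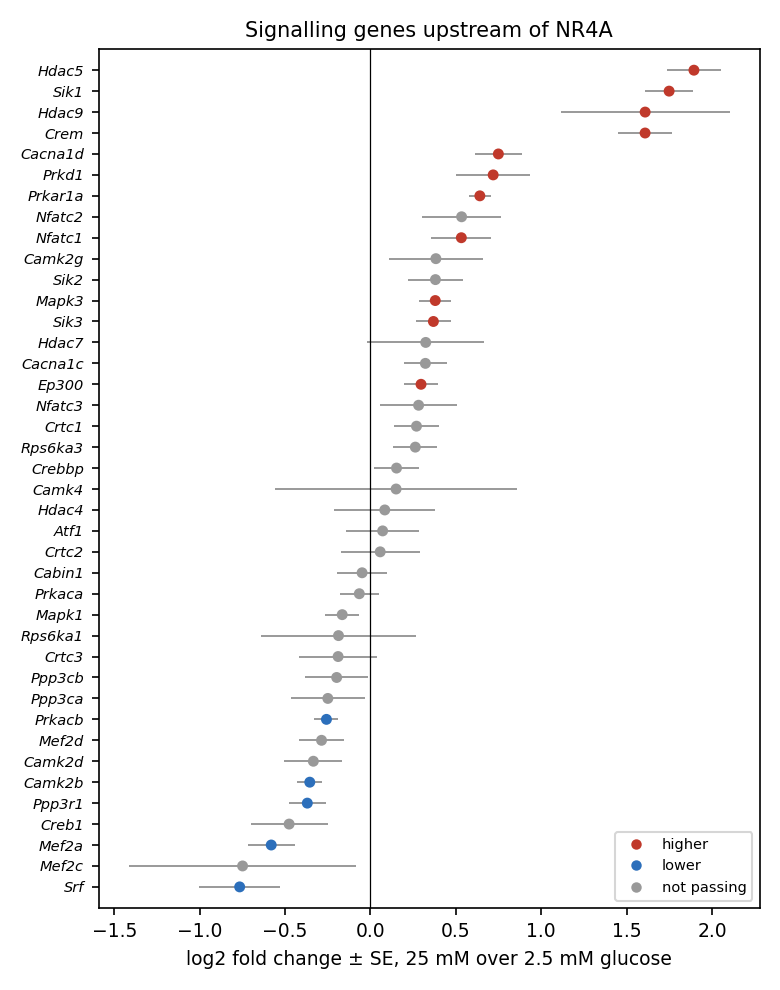
Log2 fold change (25 mM over 2.5 mM glucose, x axis) with its SE for the 40 signalling genes upstream of NR4A, ordered by value. Red points are higher, blue lower and grey not passing. *Hdac5*, *Sik1* and *Crem* are among the 4 genes furthest to the right, and 24 genes did not pass.

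Partners of the NR4A proteins gave log2FC of -1.21 to 0.56. Of 20 partners and co-regulators 17 were tested, with 5 higher (29.4%), 1 lower (5.88%) and a median log2FC of 0.18. The shares over all tested genes were 12.1% and 10.2%. The dimer partners *Rxra* (0.35, adjusted p = 0.32) and *Rxrb* (0.13, adjusted p = 0.79) did not pass. *Trim28*, a co-regulator that acts with NR4A proteins (0.32, adjusted p = 6.7e-04), the corepressor *Ncor1* (0.56, adjusted p = 0.0019) and the kinase *Hipk3* (0.50, adjusted p = 0.0040) were higher, and the co-activator *Ncoa3* was lower (-0.40, adjusted p = 0.0035).

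Among 5 genes tied to NR4A in beta cells, the upstream factor *Nkx6-1* was higher, at 170 ± 9.20 CPM in high glucose and 110 ± 17.0 CPM in low glucose (log2FC 0.63, adjusted p = 3.3e-05). *Sdhb*, a subunit of the respiratory chain, was slightly lower (-0.22, adjusted p = 0.023). The cell cycle genes *E2f1* (-0.18, adjusted p = 0.37) and *Ube2c* (0.51, adjusted p = 0.68) and the Krebs cycle gene *Idh3g* (-0.09, adjusted p = 0.41) did not pass. Of 35 genes known as NR4A targets in other tissues 21 were tested, with 2 higher (9.52%), 3 lower (14.3%) and 16 that did not pass. These shares lay near those of all tested genes, 12.1% and 10.2%, and the median log2FC of the targets was -0.34. The cyclins *Ccnd1* (0.31, adjusted p = 0.0017) and *Ccnd2* (0.21, adjusted p = 0.025) were higher, and the lower genes included the gluconeogenic enzyme *Fbp1* (-0.65, adjusted p = 0.0013) and the survival gene *Birc3* (-0.79, adjusted p = 0.020).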

How the data were processed

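Ribo-seq counts of 6 islet libraries were analysed. As the study describes it, the authors removed rRNA and tRNA reads, aligned what was left by TopHat2 (version 2.0.12) and made the deposited counts per gene with HTSeq (version 0.9.1), as whole numbers with no scaling for depth. The strand setting is not given in the sources used here. The submitters' notes name mm10, but 4.58% of 21221 deposited gene starts lay within 10000 bases of those of GRCm38.p6, so deposited positions are not printed.

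The test used edgeR (version 4.0.16) under R (version 4.3.3), as filterByExpr by condition, TMM and the quasi-likelihood F test without covariates, with Benjamini-Hochberg adjustment over 13100 genes. The planned test of *Nr4a3* was not possible in this fit because the filter removed it, and the pooled ratio and the fit without a filter stand in its place. Member ratios used log2 CPM with a prior count of 2. On simulated counts for this comparison (12752 genes), the test called 61.2% of 49 genes with a set log2FC of 1, and 6 of 12557 unchanged genes.

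The members and gene lists were chosen with earlier results of these data known. Named genes are the members, up to 3 higher and 3 lower genes per list, taken by smallest adjusted p, every gene of a list of 7 or fewer, and the 5 nearest profiles of each member. *Rxra*, *Rxrb* and *Creb1* were named in addition, with their values known, and 1 gene that the rule takes is not reported here. Alternatives were DESeq2 (version 1.42.0) with and without shrinkage, limma-voom (limma version 3.58.1), other size factors and filters, a robust fit, a replicate block and each library left out. No library was a copy of another, since counts differed beyond sampling noise within each condition (chi-square over degrees of freedom 6.61 to 10.6). By the study's methods, replicates came from 3 separate experiments with different pools of mice, and each pool served both conditions. The sources do not state that a repeat number marks an experiment, so the main fit has no block. Deviations from the condition means hardly correlated between same-numbered libraries (0.0074, 0.0068 and 0.0105). These values still lay above those of libraries with unlike numbers (-0.0085 to 0.0009). A pairing by number therefore remains possible, and results with a replicate block are given below. Figures used Python (version 3.11.15) and matplotlib (version 3.10.9). The RNA-seq of the study is not analysed here.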

Additional observations from a re-analysis of the deposited data

How the results depend on the processing

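Genes called numbered 2912, and 2178 to 3103 under 17 alternatives. *Nr4a1* (4.77 to 6.12 in log2FC, 17 alternatives) and *Nr4a2* (1.73 to 3.42, 16 alternatives) kept their direction and call in all of them. Requiring at least 10 counts in every library removes *Nr4a2*. With each library left out the ranges were 2178 to 2674 genes, 5.59 to 6.12 and 2.18 to 3.42. For *Nr4a3*, whose pooled log2 ratio of 5.14 carries no test, edgeR without the filter gave 4.95. Without the filter, and chosen after seeing the data, DESeq2 gave 5.11, a robust fit 4.95 and the replicate block 4.41, all past the threshold. With each library left out *Nr4a3* ranged between 3.96 and 5.51 (adjusted p up to 0.19, without high glucose replicate 2), with 4.98 without high glucose replicate 3 and 5.43, 4.41 and 5.24 without low glucose replicates 1, 2 and 3. Where the filter let it through with a library left out, its log2FC was 5.48 without high glucose replicate 1 and 5.40, 4.39 and 5.21 without low glucose replicates 1, 2 and 3. It passed the filter there only through its 70 and 40 counts in high glucose replicates 2 and 3, so these values give no separate support. Thinning to the smallest total, also added later, gave 2717 genes.

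The difference in log2 ratio of *Nr4a2* over *Nr4a3* turned to -0.73 with a prior count of 0.5 and ran from -1.08 to 1.06 with each library left out (-1.08 without high glucose replicate 1, -0.67 without low glucose replicate 3). That of *Nr4a1* over *Nr4a2* ran from 2.10 to 3.71 and that of *Nr4a1* over *Nr4a3* from 1.96 to 3.88. With the replicate number as a block, for libraries that may share mice, 2869 genes were called and the log2FC of *Nr4a1* and *Nr4a2* were 5.86 and 2.81, both still called. The causes of these changes were not tested. Low counts limit *Nr4a3*, where 3 counts are worth 0.148 to 0.186 CPM in high glucose and 0.244 to 0.318 CPM in low glucose.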

Other observations

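The CRE cores upstream of the NR4A genes were set against the other tested genes, as a description. For 8003 tested genes with a single RefSeq window, at least 1 core was found in the 250 upstream bases of 34.4% of 995 higher genes, 24.4% of 814 lower genes and 27.8% of 6194 genes that did not pass. The windows of these classes also differed in GC content, at 62.5%, 59.3% and 60.2% on average, and its part in the shares was not tested. At least 4 cores were found for 30 of these genes, of which 7 were higher, 2 were lower and 21 did not pass. Of all 8003, 995 were higher and 814 lower. The median log2FC was 0.18 for the 30 and -0.01 over all tested genes. The cutoff of 4 is the number that the members themselves hold, and *Nr4a1* and *Nr4a2* are among the 7, so this count is no support for them. *Nr4a1* and *Nr4a2* had the highest log2FC of the 30. The others that were higher included *Slc25a3*, the mitochondrial phosphate carrier (log2FC 0.65, edgeR adjusted p = 2.3e-08), and *Coq10b*, which acts with ubiquinone (0.98, adjusted p = 8.8e-06). An NBRE was found for 0.402% of the higher genes, 0.614% of the lower genes and 0.823% of those that did not pass. These genes were picked out after their values were seen.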
